A study of Rattus norvegicus with 6 samples.

Results

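Intermediate filaments are the rope-like polymers of the cytoplasm and, as lamins, the meshwork under the nuclear envelope. In astrocytes the cytoplasmic filaments are built from Gfap and vimentin, with nestin and synemin added to the polymer, and plectin ties them to actin, microtubules and membranes. Gfap is the classical marker of astrocytes and of their reactive state, and A-type and B-type lamins give the nucleus its shape and stiffness. The 8 genes described here, Gfap, Vim, Nes, Synm, Plec, Lmna, Lmnb1 and Lmnb2, were chosen by name, with earlier results of these data known. They were taken out of 14217 genes with a symbol of their own on the array. All 8 were on the array, through 13 probe sets, the groups of short probes that read a transcript.

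The study measured RNA of primary astrocytes cultured from rat spinal cord on 6 Affymetrix arrays. NonTG cultures, 3 arrays, carried no transgene, and hSOD1G93A cultures, also 3 arrays, came from transgenic rats with human superoxide dismutase 1 bearing the ALS-linked G93A change. Each group has an array A, B and C, and the labels do not say what a letter stands for. Confluent monolayers of both groups spent 24 hours in supplemented L15 medium before 5 µg of total RNA was labelled. The labels used here give neither the age of the animals nor the number of animals or cultures behind an array, so the spread behind each p-value may be technical. The array reads rat transcripts, and the human transgene itself was not checked here.

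Values are signals on the authors' linear scale, and a difference is hSOD1G93A minus NonTG in log2 units. Each array had been scaled to the same trimmed mean, 500.2 after removal of the extremes, and the medians lay between 128.85 and 136.28. The 3' to 5' signal ratio, a measure of RNA integrity, was 0.954 to 1.012 for Gapdh and 1.10 to 1.19 for actin, and all 3 hSOD1G93A arrays had a lower actin ratio than the NonTG array of the same letter. The part of RNA integrity in the results was not tested. Of 10 microglia markers 1, Laptm5, lay above the filter on dim signals (a mean signal of 66.7), with signals of 118.3 to 157.2 in NonTG and 97.2 to 160.8 in hSOD1G93A. All 9 astrocyte markers on the array beside Gfap were above it, with a median difference of 0.056. That median was 0.14 after quantile normalization, described below, and -0.0082 without NonTG C. The medians were -0.12 for 7 tested fibroblast markers, 4 negative and 3 positive (-0.0029 without hSOD1G93A B, and 0.019 with no filter), and -0.24 for 9 of pericytes and smooth muscle, all 9 negative (-0.028 without hSOD1G93A B). For 5 markers of the oligodendrocyte lineage, 1 negative and 4 positive, the median was 0.63 (0.13 with the filter at the 60th percentile of signal). For 6 of neurons, 2 negative and 4 positive, it was 0.16. Col1a2, a collagen chain made by fibroblasts, had signals of 21029 to 23383 in NonTG and 19707 to 20888 in hSOD1G93A and was among the brightest genes. Other markers of that list differed in the other direction: Dcn, decorin, a small matrix proteoglycan, read 59.1 to 92.3 in NonTG and 283.2 to 666.7 in hSOD1G93A, a difference of 2.52 (SE 0.32, limma's unadjusted p = 2.4e-05, adjusted p = 0.40). Aldh1a2, an enzyme of retinoic acid synthesis, differed by 1.15 (SE 0.23, limma's unadjusted p = 0.00067, adjusted p = 0.9997), also without overlap, and Lum, lumican, by 1.08 (SE 0.73) with overlap. The part of such cells in the members' values was not tested. Vim, Nes and the lamins are also made by fibroblasts and pericytes, and in such bulk RNA fewer cells of a type and less RNA per cell cannot be told apart.

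No filament or lamin gene passed the test for a difference between hSOD1G93A and NonTG. Of the 13 probe sets, 11 were above the filter and tested, and limma called 0 of them after Benjamini-Hochberg adjustment over all 18625 probe sets (all with an adjusted p of 0.9997), as it called 0% of all tested. At an unadjusted p of 0.05, limma counted 0 of the 11, where 2.54% of all probe sets passed. The 2 groups overlapped for all 11, where 7.51% of all probe sets did not overlap. For 6 of the 11 the 95% interval of the difference lay within 1.5-fold in both directions, and larger changes of those probe sets were outside these intervals. The plot of signals shows the values array by array.

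**Figure D1:**
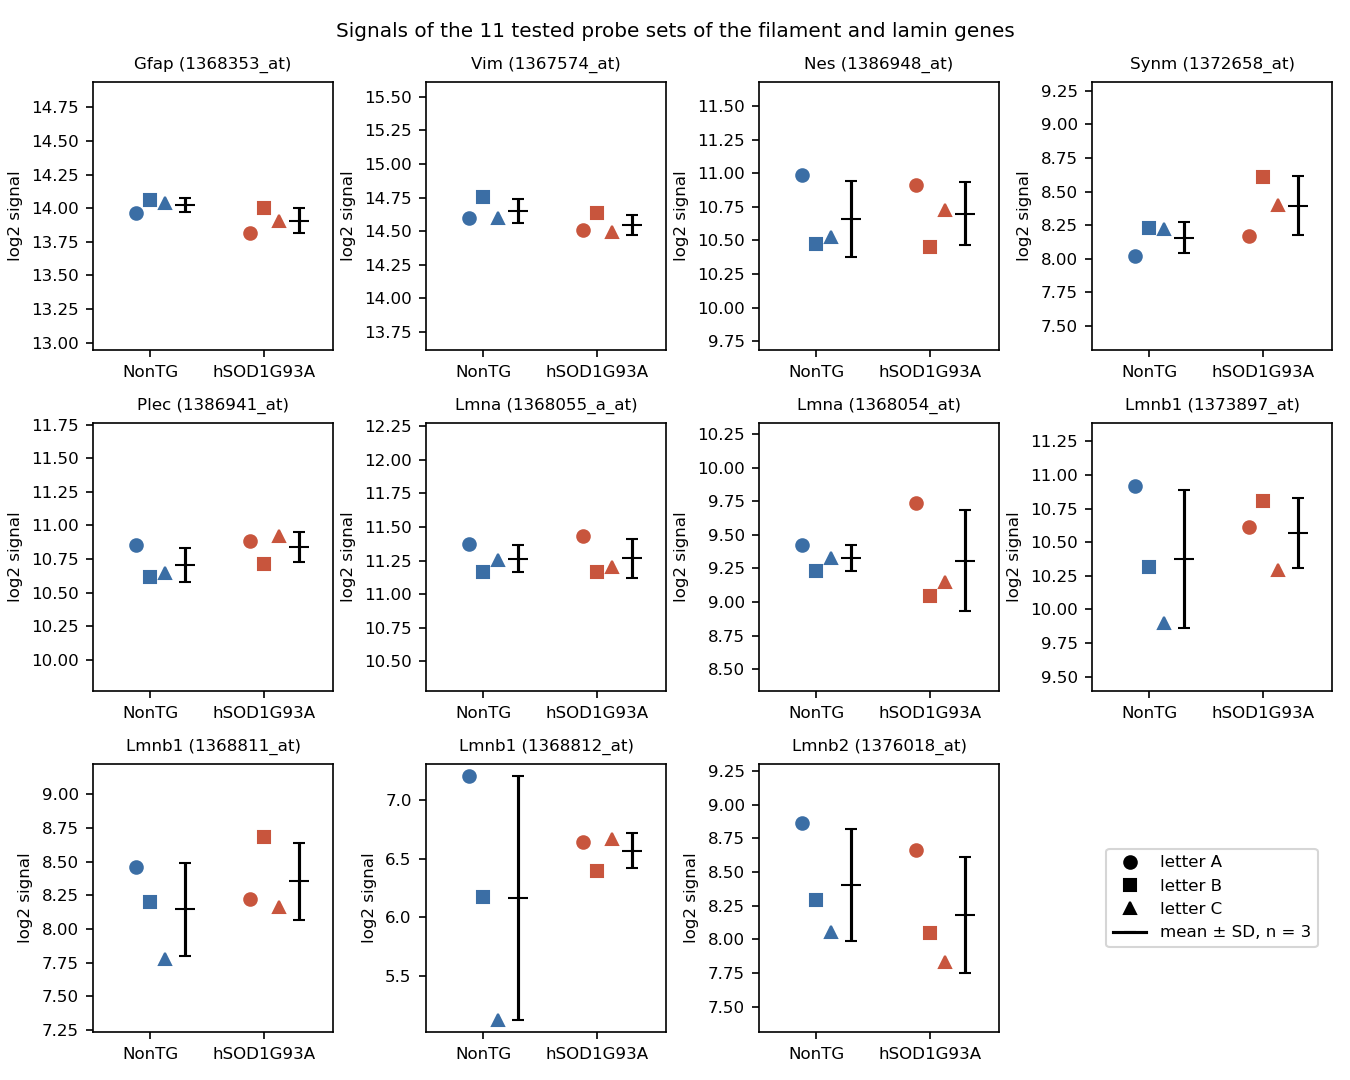
Log2 signal (y axis) of the 11 tested probe sets on the 6 arrays, by group (x axis), with the letter as the symbol and the mean ± SD of 3 arrays in black; each y axis spans at least 2 log2 units. The groups overlap in every panel, and the Lmnb1 and Lmnb2 panels spread more than those of Gfap and Vim.

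Gfap, the type III filament protein that defines astrocytes, was among the brightest signals of the array and did not pass the test. Its probe set (1368353_at) gave signals of 15999, 17105 and 16814 on NonTG arrays A, B and C, and of 14400.0, 16419 and 15313 on hSOD1G93A arrays A, B and C. The highest hSOD1G93A array, B, lay above the lowest NonTG array, A, so the groups overlapped. The mean log2 signal was 14.02 ± 0.050 (SD, n = 3) in NonTG and 13.91 ± 0.095 (SD, n = 3) in hSOD1G93A. The difference, larger than either SD, was -0.12 (SE 0.070, 95% interval -0.27 to 0.042, limma's unadjusted p = 0.13). As a ratio, NonTG over hSOD1G93A was 1.08, with an interval from 0.97 to 1.21. An increase of Gfap signal beyond 1.03-fold in hSOD1G93A lay outside this interval. That holds for the signals as the authors scaled them and for the fit with limma's intensity trend. Without the trend limma's unadjusted p for the same difference was 0.29, so the interval is wider there. After quantile normalization, described below, the difference was -0.029 (limma's unadjusted p = 0.58).

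Vim, the type III filament protein that precedes Gfap in development and stays on in cultured astrocytes, differed by about the same amount. Its probe set (1367574_at) read 24859.8, 27629.7 and 24861 in NonTG and 23365, 25420.5 and 23129.5 in hSOD1G93A, in the order A, B, C. Array B was the highest of both groups, and hSOD1G93A B exceeded NonTG A and C. The difference was -0.10 (SE 0.070, 95% interval -0.26 to 0.053, limma's unadjusted p = 0.17), and NonTG over hSOD1G93A was 1.08 with an interval of 0.96 to 1.20.

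Both genes read lower in hSOD1G93A within each letter. The differences within A, B and C were -0.15, -0.059 and -0.13 for Gfap and -0.089, -0.12 and -0.10 for Vim. Of the 11 tested probe sets 3 were lower in all 3 letters, the third being that of Lmnb2, and 12.2% of all probe sets were. With the letter as a block, limma's unadjusted p was 0.043 for Gfap and 0.042 for Vim, the only 2 of the 11 below 0.05, where 5.85% of all probe sets passed. The adjusted p was then 0.83 for both, and the block called 0 probe sets in all.

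The very brightest probe sets had differences of about this size. Among the 100 brightest tested probe sets, a group chosen after the values were seen, 94 had a negative difference, 72 of them within every letter, and their median was -0.10. Among the 1000 brightest 68.5% were negative, and the median was -0.040, nearer to 0 than Gfap and Vim. Gfap and Vim belong to the first 100, with 74 and 3 probe sets of 31042 brighter. The median over all tested probe sets was 0.0070. After quantile normalization, which gives every array the same distribution, the median of the 100 was -0.015, the difference of Gfap was -0.029 and that of Vim was -0.015. The log2 ratio of Gfap to Vim within an array, from which the scale of an array cancels, was -0.63 ± 0.064 (SD, n = 3) in NonTG and -0.64 ± 0.052 (SD, n = 3) in hSOD1G93A. Its value differed between the groups by -0.011, less than either SD. A difference shared by both genes also cancels from this ratio. The part of array scaling and signal intensity in the values of Gfap and Vim was not tested.

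Gfap, Vim, Lmnb2, Synm and Plec each had a tested probe set with the same sign in all 3 letters. The promoters of Gfap and Vim, the type III filament genes among them, are shown here. They are the 250 bases before the annotated start in RefSeq, build GRCr8, read 5′ to 3′ along the gene, and 7 of the 8 genes had an entry. Capitals mark matches, on either strand, to 6 short motifs. These are the TATA box as TATAAA, the box named for its letters CCAAT, the GC box as GGGCGG, the AP-1 element as TGACTCA, the STAT element as TTCNNNGAA and the cell cycle element as TTTGAA. None of the matches in the promoters printed overlap.
Gfap promoter, GRCr8 chr10:88361662-88361911, minus strand: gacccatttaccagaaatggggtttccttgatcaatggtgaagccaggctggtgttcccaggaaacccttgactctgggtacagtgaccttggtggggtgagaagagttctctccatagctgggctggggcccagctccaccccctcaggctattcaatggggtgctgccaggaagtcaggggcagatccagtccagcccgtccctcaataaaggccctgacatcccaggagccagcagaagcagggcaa
Vim promoter, GRCr8 chr17:81577011-81577260, plus strand: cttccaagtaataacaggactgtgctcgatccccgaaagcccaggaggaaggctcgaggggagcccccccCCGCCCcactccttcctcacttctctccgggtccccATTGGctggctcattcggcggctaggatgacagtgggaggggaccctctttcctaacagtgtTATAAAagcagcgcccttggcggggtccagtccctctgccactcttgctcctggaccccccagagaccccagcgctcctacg
The Vim window held TATAAA from 82 to 77 bases before the start, CCAAT on the other strand from 144 to 140 and GGGCGG on the other strand from 180 to 175. Those 3 occur in 12.9%, 34.0% and 30.5% of the 33469 promoters of this length. The Gfap window held none of the 6, which says only that these letters are not in this window. The AP-1, STAT and cell cycle elements occur in 4.05%, 7.67% and 16.2% of all promoters, and neither gene's window held them.

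The genes whose log2 signals followed Gfap most closely over the 6 arrays, among 14632 other probe sets with 1 symbol, were Rpl7a, a protein of the large ribosomal subunit (Pearson's r of 0.999), Stap2, an adaptor protein (0.981), and Gcfc2 (0.980). With 6 arrays that share their scaling, 1 in 100 probe sets reached an r of 0.889, so this is a description.

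Nes, nestin, is a large filament protein of neural progenitors that also appears in cultured and reactive astrocytes. It had close group means and was highest on the A array of each group. Its probe set (1386948_at) read 2029.6, 1422 and 1470.5 in NonTG and 1931, 1399.5 and 1696 in hSOD1G93A, in the order A, B, C. Both A arrays lay above the other 4, and the groups overlapped. The group difference was 0.037 (SE 0.16, 95% interval -0.32 to 0.40), between 0.80-fold and 1.32-fold. Its sign was negative without NonTG B, NonTG C or hSOD1G93A A, with a range of -0.071 to 0.20 when each array was left out. The log2 ratio of Gfap to Nes was 3.36 ± 0.33 (SD, n = 3) in NonTG and 3.21 ± 0.33 (SD, n = 3) in hSOD1G93A, and was lowest on the A array of both groups.

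Synm, synemin, a large filament protein that joins vimentin filaments to the dystrophin complex and to adhesion sites, was read by 3 probe sets, of which 1 was above the filter. That one (1372658_at) gave 259.9, 300.4 and 298.5 in NonTG and 287.9, 390.9 and 338.5 in hSOD1G93A. It was higher in hSOD1G93A within each letter, by 0.15, 0.38 and 0.18, as 13.5% of all probe sets were. The groups overlapped, since hSOD1G93A A lay below NonTG B and C. The difference was 0.24 (SE 0.16, 95% interval -0.12 to 0.59, limma's unadjusted p = 0.17), a ratio of 1.18 with an interval of 0.92 to 1.51. The other probe sets were dim, at 9.27 to 71.4 (1398113_at) and 3.15 to 29.4 (1376604_at), and the first of these had its 2 highest signals on hSOD1G93A B and C. Both were left out of the test, and without a filter their differences were 1.38 (SE 0.87) and 0.85 (SE 1.007).

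Plec, plectin, the giant linker between intermediate filaments and the rest of the cell, had a single probe set (1386941_at), with signals of 1846.6, 1571 and 1604 in NonTG and 1894, 1676 and 1938 in hSOD1G93A. All 3 letters gave a positive difference (0.037, 0.094 and 0.27), and the groups overlapped because NonTG A exceeded hSOD1G93A B. The difference was 0.13 (SE 0.10, 95% interval -0.091 to 0.36, limma's unadjusted p = 0.21), or 1.10-fold. Synm and Plec were the 2 tested probe sets with a positive sign in every letter.

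Lmna, which encodes lamins A and C by alternative splicing, gave the smallest differences. The brighter probe set (1368055_a_at), whose probes match several transcripts of the gene, read 2649.5, 2301 and 2446 in NonTG and 2768, 2296 and 2351 in hSOD1G93A. Both A arrays were the highest, and the group difference was 0.00080 (SE 0.099, 95% interval -0.22 to 0.22), a ratio between 0.86 and 1.17. The second probe set (1368054_at) differed by -0.018 (SE 0.18), with signals of 600.7 to 686.4 in NonTG and 528.1 to 852.0 in hSOD1G93A, and again had both A arrays above the other 4. Lamins A and C cannot be told apart from these values.

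Lmnb1, lamin B1, which is made by all dividing cells and declines in senescent ones, varied widely among the arrays. The brightest of its 3 (1373897_at) read 1932, 1274 and 954.6 in NonTG and 1569.7, 1791 and 1253 in hSOD1G93A. NonTG A was the highest and NonTG C the lowest of the 6, so the hSOD1G93A arrays lay inside the NonTG range. The difference was 0.19 (SE 0.23, 95% interval -0.33 to 0.72, limma's unadjusted p = 0.42). The second probe set (1368811_at), at 219.6 to 352.9 in NonTG and 286.1 to 410.6 in hSOD1G93A, differed by 0.21 (SE 0.21). The dimmest (1368812_at), at 34.8 to 147.8 and 84.1 to 101.8, differed by 0.40 (SE 0.47).

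The 3 Lmnb1 probe sets had the same signs within the letters. The differences within A, B and C were -0.30, 0.49 and 0.39 for the brightest, -0.24, 0.48 and 0.38 for the second and -0.56, 0.22 and 1.55 for the dimmest. The probe sets share the gene, so they are not separate evidence. The cell cycle list, 19 tested genes of replication and mitosis, had medians of -0.19, 0.36 and 0.22 within the same letters. Its value by array (the median over its genes of the deviation from each gene's mean) was 0.37, -0.22 and -0.41 in NonTG and 0.25, 0.21 and -0.23 in hSOD1G93A. The part of cell division in the Lmnb1 values was not tested. The closest patterns to Lmnb1 over the 6 arrays were those of Nkiras1, an inhibitor of NF-kB signalling (Pearson's r of 0.994), Aggf1, an angiogenic factor (0.992), and Hnrnpa3, an RNA-binding protein (0.992), where 1 in 100 probe sets reached 0.932.

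Lmnb2, lamin B2, the other B-type lamin, had the most negative difference of the 11 and the same order of letters in both groups. Its probe set (1376018_at) read 466.6, 313.6 and 265.9 in NonTG and 404.8, 265.0 and 227.3 in hSOD1G93A. In both groups A was the highest and C the lowest, and the differences within the letters were -0.21, -0.24 and -0.23. The group difference was -0.22 (SE 0.26, 95% interval -0.81 to 0.36), and with the letter as a block the SE was 0.13 and limma's unadjusted p 0.12. The log2 ratio of Lmnb2 to Lmnb1 was -1.97 ± 0.11 (SD, n = 3) in NonTG and -2.39 ± 0.41 (SD, n = 3) in hSOD1G93A. It was higher in hSOD1G93A under A (0.094) and lower under B and C (-0.73 and -0.62). That of Lmna to Lmnb1 was 0.89 ± 0.45 (SD, n = 3) and 0.69 ± 0.29 (SD, n = 3), and it also had another sign under A (0.36, -0.49 and -0.45).

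**Figure D2:**
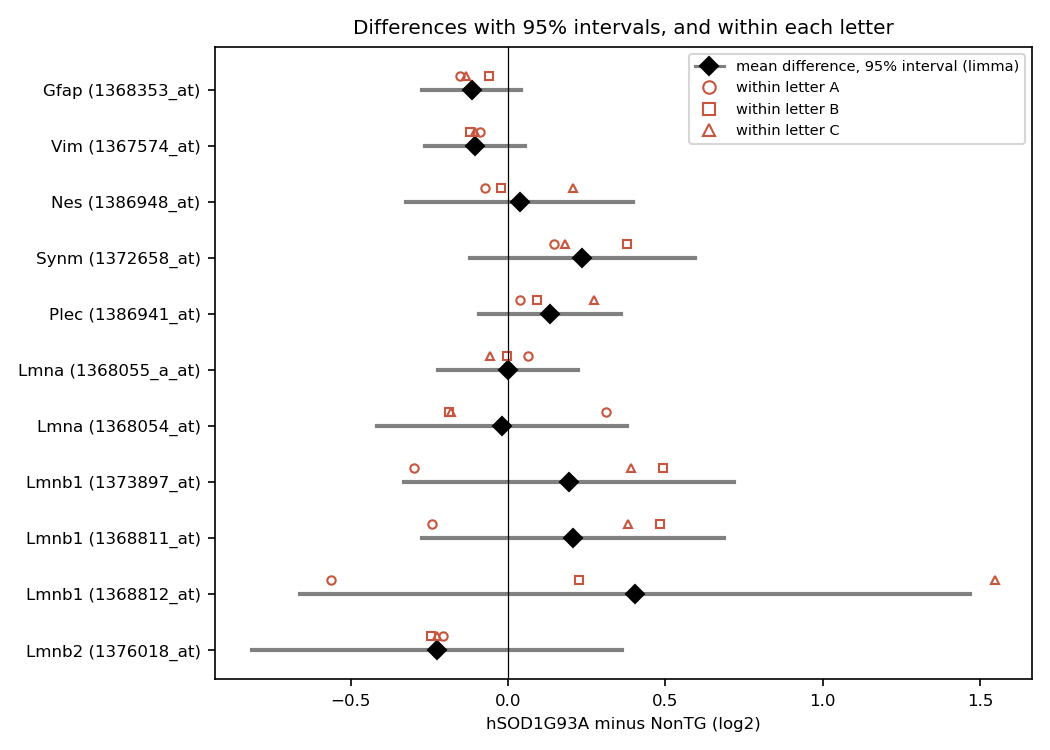
Difference of hSOD1G93A minus NonTG in log2 units (x axis) for the 11 tested probe sets (y axis), with limma's 95% interval as a grey bar and the differences within letters A, B and C as open symbols. All intervals contain 0, and the open symbols of Gfap, Vim and Lmnb2 all lie left of 0 while those of Synm and Plec all lie right of it.

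Some members had a wide range of letter means, but none passed a test of the letters after adjustment. The range of the 3 letter means was 0.49 for Nes (1.40-fold), 0.82 for Lmnb2 (1.77-fold) and 0.14 for Gfap. It was widest for the dimmest Lmnb1 probe set, at 1.03 (2.04-fold), and was 0.67 (1.59-fold) for the brightest. In limma's F test of the letters, with the group in the design, 5 of the 11 had an unadjusted p below 0.05, where 15.6% of all probe sets did. By limma they were Lmnb2 (unadjusted p = 0.0018), Nes (0.0033), the brightest Lmnb1 probe set (0.0092), Vim (0.043) and the second Lmna probe set (0.044). The dimmest Lmnb1 probe set had 0.16. The count depended on the setting. Without the intensity trend limma's F test gave 0.0025 for Lmnb2 and 0.038 for Nes. It then gave 0.087 for that brightest Lmnb1 probe set, 0.40 for Vim and 0.12 for that Lmna probe set. With median centring the brighter Lmna probe set had 0.017. None passed after adjustment over all probe sets: the lowest adjusted p was 0.083, for Lmnb2 (0.066 to 0.34 over the alternatives), and that of Nes was 0.11 (0.080 to 0.39). In all, 195 probe sets (1.05%) passed.

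Both A arrays lay above the other 4 for Nes, Lmnb2 and both Lmna probe sets, 4 of 11, which was so for 12.0% of all probe sets. They lay below the other 4 for Synm, 1 of 11, against 12.6% of all. Gfap was lowest on the A array of each group and highest on the B array. Among other genes, the cell cycle list had a median of 0.46 for the A arrays minus the others, and 8 of its 19 genes had both A arrays on top. Pericyte and smooth muscle markers had a median of 0.38, with 1 of 9 genes so placed, and fibroblast markers one of 0.23, with 2 of 7. The median over all 10473 genes was -0.0070. Summed signals ranged from 13318 to 22051 in NonTG and 15580.0 to 20005 in hSOD1G93A for the cell cycle list, from 23840.3 to 29779 and 17755 to 29444 for the pericyte list, and from 60275 to 61241 and 44949 to 61952 for the fibroblast list. Only genes above the filter on dim signals enter these sums, and the part of these lists in the values of Nes, Lmna and Lmnb2 was not tested.

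**Figure D3:**
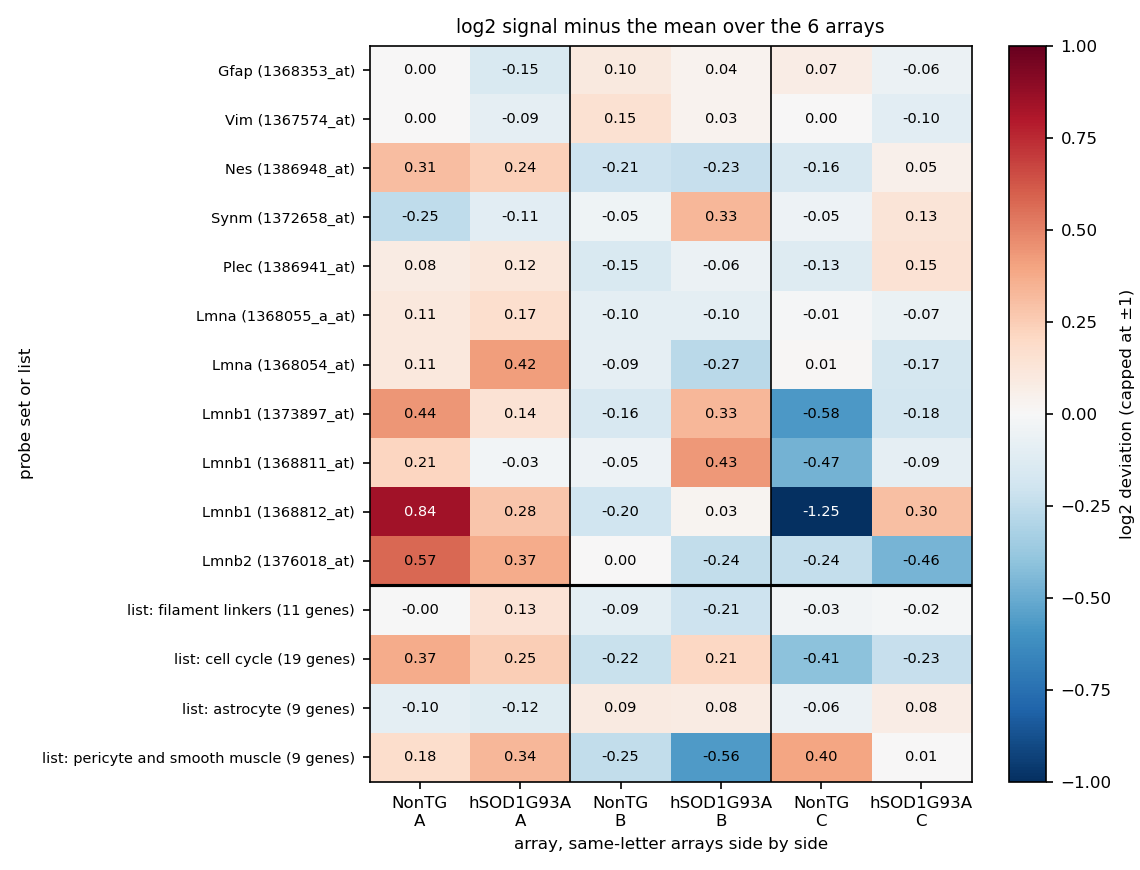
Log2 signal minus the mean over the 6 arrays for the 11 tested probe sets (upper rows) and for the value of 4 gene lists (lower rows), with arrays of the same letter side by side (x axis). Nes, Lmna and Lmnb2 are positive on both A arrays, the brightest Lmnb1 probe set and the cell cycle list are positive on both A arrays and on hSOD1G93A B and lowest on NonTG C, and Gfap and Vim vary little.

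The promoters of Nes and Lmnb2 are shown as those of the 2 genes with the smallest p for the letters, in the same form as above.
Nes promoter, GRCr8 chr2:175736338-175736587, plus strand: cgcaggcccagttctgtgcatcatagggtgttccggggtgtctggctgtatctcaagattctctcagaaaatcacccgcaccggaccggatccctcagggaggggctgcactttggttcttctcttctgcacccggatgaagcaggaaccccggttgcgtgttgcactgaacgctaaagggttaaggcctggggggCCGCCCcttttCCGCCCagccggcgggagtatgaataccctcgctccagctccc
Lmnb2 promoter, GRCr8 chr7:9443058-9443307, plus strand: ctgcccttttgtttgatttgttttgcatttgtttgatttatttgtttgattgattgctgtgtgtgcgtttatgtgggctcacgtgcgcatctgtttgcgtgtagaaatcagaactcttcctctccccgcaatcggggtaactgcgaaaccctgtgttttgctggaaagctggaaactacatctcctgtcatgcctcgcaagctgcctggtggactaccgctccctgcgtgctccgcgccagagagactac
The Nes window held GGGCGG on the other strand at 2 places, from 54 to 49 and from 43 to 38 bases before the start, and the Lmnb2 window held none of the 6 motifs. Among the other members' windows, Lmna had GGGCGG on the other strand from 97 to 92, Synm had CCAAT from 246 to 242, and Lmnb1 had CCAAT on the other strand from 57 to 53 and TTTGAA from 110 to 105.

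Genes around the filaments gave few values apart from zero. Of 16 other intermediate filament proteins on the array, 6 were above the filter, 4 with a negative and 2 with a positive difference, with a median of -0.16 (0.20 without NonTG C) against 0.0030 over all 10473 genes, of which 49.0% were negative. Desmin, peripherin, internexin, the heavy neurofilament chain and Krt5, Krt7, Krt8, Krt14, Krt18 and Krt19 were dim. The 3 with the smallest p were Bfsp2, a lens filament protein (0.68, SE 0.38), Nefl, the light neurofilament chain (-0.49, SE 0.48), and Krt10 (-0.15, SE 0.23), none below an unadjusted p of 0.05. Of the 11 tested linkers, 6 were negative and 5 positive with a median of -0.0072. Itgb4, the integrin that binds plectin (0.71, SE 0.38), Utrn, utrophin, a relative of dystrophin (-0.36, SE 0.20), and Ppl, periplakin (0.38, SE 0.27), had the smallest p. The plectin relatives Dst and Macf1, which link filaments and microtubules, differed by -0.12 (SE 0.16) and -0.062 (SE 0.12).

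Partners of the lamina in the nuclear envelope had a median of 0.035 over 16 tested genes, 6 negative and 10 positive. Nrm, nurim of the inner nuclear membrane, differed by 0.46 (SE 0.24). Tmem43, a membrane protein that binds emerin and lamins (-0.10, SE 0.066), and Lemd2, a LEM-domain protein (-0.15, SE 0.12), were lower on all hSOD1G93A arrays than on any NonTG array. They were 2 of 16, where 7.51% of all probe sets did not overlap. Of the 5 enzymes that farnesylate, cut and methylate prelamins, 3 were negative and 2 positive, with a median of -0.0071. Examples were Rce1, a prenyl protease (-0.11, SE 0.15), Icmt, the methyltransferase (0.11, SE 0.17), and Zmpste24, the prelamin A protease (0.059, SE 0.10).

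Kinases that phosphorylate filaments had a median of 0.062 over 8 tested genes. Aurkb, the mitotic kinase of vimentin and Gfap, differed by 0.44 (SE 0.16, limma's unadjusted p = 0.020, adjusted p = 0.9997) and was the only one below 0.05 unadjusted. It also belongs to the cell cycle list, of which 17 of 19 tested genes had a positive difference (median 0.13, or -0.017 without NonTG C and 0.39 without NonTG A). Also there were Plk1, a mitotic kinase (0.29, SE 0.18), and Mcm6, a part of the replicative helicase (0.33, SE 0.22). Rock1 and Rock2, which phosphorylate Gfap and vimentin at the cleavage furrow, differed by -0.43 (SE 0.22) and -0.22 (SE 0.13). Of the 6 tested genes of filament turnover and chaperoning, 3 were negative and 3 positive (median 0.021). They included Capn2, a calpain (-0.13, SE 0.11), Casp6, a caspase that cuts lamins (0.11, SE 0.12), and Trim32, a ubiquitin ligase (0.059, SE 0.084). Of 8 regulators of filament genes 5 were negative and 3 positive (median -0.012). Those with the smallest p were Sox11, a progenitor transcription factor (0.38, SE 0.20), Nfix (0.14, SE 0.11) and Nfia (-0.100, SE 0.077), both of the nuclear factor I family that acts on Gfap. Limma called 0 genes of these lists after adjustment, and 1 of 76 had an unadjusted p below 0.05, Aurkb, where 2.54% of all probe sets did. With the letter as a block 5 did by limma (Aurkb, Utrn, Plk1, Itgb4 and Mcm6), where 5.85% of all probe sets did. In these lists the groups did not overlap for Tmem43 and Lemd2, lower in hSOD1G93A, and for Aurkb, Casp6 and Sox11, higher. Over all probe sets, 7.51% did not overlap.

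**Figure D4:**
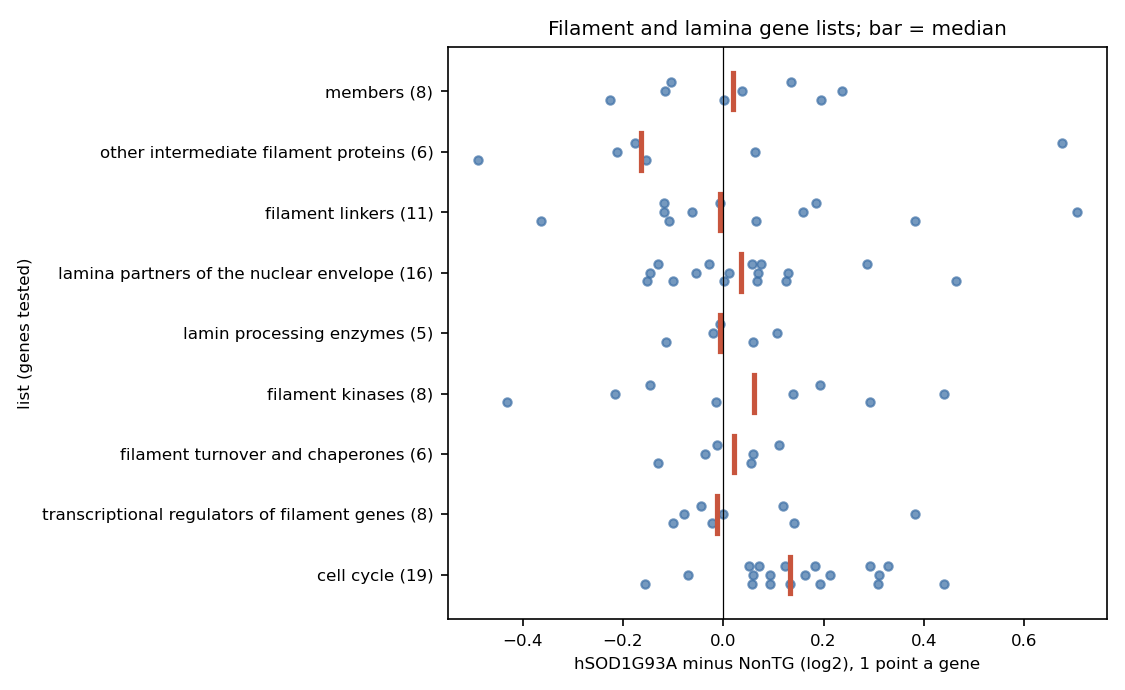
Difference of hSOD1G93A minus NonTG in log2 units (x axis) for each tested gene of the 8 members and of the 8 lists around them (y axis, with the number of genes), with the median as a red bar. The list medians lie between -0.16 and 0.13, and the cell cycle list has most of its points right of 0.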

How the data were processed

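RNA of 6 astrocyte samples was read on the Rat Genome 230 2.0 array. The deposited values are linear intensity values, 1 per probe set and array. The authors made them in GCOS 1.4 by MAS5, per the submitters' processing notes; the design text also names GC-RMA and log values, which these are not. Here log2 was taken with no further normalization. The 57 control probe sets of 31099 were left out, as were those at or below the 40th percentile of mean log2 signal (18625 remained). Groups were compared in limma 3.58.1 under R 4.3.3 (lmFit; eBayes, intensity trend; both directions), and p-values were adjusted by Benjamini-Hochberg at a threshold of 0.05. The number of arrays limits the precision (median SE 0.16). For a list, each gene stands by its brightest tested probe set. Names come from the platform annotation, and the Entrez identifiers of all 8 members are in the current rat table. The text names every member and, in each list around them, the 3 genes with the smallest p; of the cell type lists Laptm5 and Col1a2, the brightest of theirs, are named, and Dcn, Aldh1a2, Lum, Dst and Macf1 were picked after their values were seen. The members and lists were chosen with earlier results of these data known. Same-letter arrays of the groups deviated together (correlations of 0.30, 0.25 and 0.20 for A, B and C, against -0.28 to 0.025 for other pairs), so the letter was also fitted as a block; this pairing rests on the data, not on a label. The fits were tested on simulated data, with independent noise and with shifts larger than any difference of the tested members. That test does not show how well differences of the members' size are found.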

Additional observations from a re-analysis of the deposited data

How the results depend on the processing

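Limma called 0 probe sets for the groups under every alternative run, and the count with an unadjusted p below 0.05, 474, was 1090 with the replicate block, 999 with no filter, 283 with the 60th percentile filter, 852 with array weights and 343 to 1185 when each array was left out. The block changed no call. Gfap, Vim, Synm, Plec and the second Lmnb1 probe set kept their sign in all 14 alternatives, with ranges when an array was left out of -0.16 to -0.069, -0.15 to -0.054, 0.13 to 0.35, 0.091 to 0.21 and 0.023 to 0.37. Others changed sign without some array: Nes (-0.071 to 0.20), Lmna (1368055_a_at, -0.083 to 0.054, also -0.019 with median centring and -0.0055 with array weights; 1368054_at, -0.23 to 0.11), Lmnb1 (1373897_at, -0.044 to 0.46; 1368812_at, -0.12 to 0.92) and Lmnb2 (-0.47 to 0.0060). List medians that moved beyond their spread were those of other filament proteins (-0.25 to 0.20 without 1 array), lamina partners (-0.0047 to 0.033, and -0.0038 with the mean over probe sets), regulators (-0.041 to 0.082) and oligodendrocyte markers (0.40 to 0.75, and 0.13 with the 60th percentile filter). The letters gave 195 calls, 110 with no filter and 0 without the intensity trend. The cause of these changes was not tested. With 3 arrays a group, differences of the dim Synm and Lmnb1 probe sets stay imprecise.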
